A study of Mus musculus with 6 samples.

Results

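Homeobox genes outside the HoxB cluster are described here in J1 mouse embryonic stem cells kept with SB431542 or with its solvent. The set holds 45 genes, given as a list of names, and their probes were found through the RefSeq accession that the array gives each probe. A probe was matched for 44 of them (54 probes), 39 genes were bright enough to test, 5 were not, and no probe was matched to Pou6f1. The whole array gave 25899 testable features. The cells were exposed to 3 µM SB431542 for 24 h (3 arrays) or to DMSO for 24 h (3 arrays). All cells grew on gelatin, in serum replacement medium with LIF at 1000 U/mL, and LIF is the cytokine that holds mouse embryonic stem cells in self-renewal. J1 is a line of strain 129S4/SvJae, taken from the inner cell mass. Whether replicates came from different dishes is not in the labels, so each p-value reflects the spread among these samples alone, and that spread may be technical.

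Homeobox genes encode transcription factors that bind DNA through a conserved fold, the homeodomain. Hox genes lie in clusters and give cells along the body axis their position, and they bind DNA together with cofactors of the TALE class, the Meis, Pbx and Pknox proteins. Most Hox and patterning homeobox genes are kept silent in embryonic stem cells by Polycomb, while others, such as Rhox5, are used by these cells. SB431542 blocks the kinases ALK5, ALK4 and ALK7, the type I receptors for TGF-beta, activin and Nodal.

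The share of spots well above background was 63.9% to 66.2% over the arrays. Lefty1, a Nodal target, fell to 2.03, 3.31 and 3.25% of the array's 75th percentile with SB431542, against 1949, 1840 and 1983% with DMSO. The feedback inhibitor gene Smad7 fell to 23.1, 21.7 and 22.1%, against 545.1, 534.9 and 534.0% with DMSO (log2 change -4.595 ± 0.05, SE, 3 arrays per group, limma adjusted p = 1.887e-06). On slide 1 alone its log2 change was -4.59. SB431542 replicate 3 was the only array on slide 2, which was scanned separately, so values on slide 1 alone are given beside each call among the 45 genes. On slide 1 the DMSO arrays lay in row 1 and the SB431542 arrays in row 2, so that row and treatment cannot be told apart there. All 8 embryonic stem cell markers were well above background on enough arrays to test, 2 fell and 0 rose, and their summed signal was 419.6 to 467.3 times the 75th percentile with SB431542 and 563.4 to 589.7 times with DMSO. Among markers of other cell types, 3 of 5 tested neuroectoderm genes fell, with a summed signal of 3.19 to 3.50 times the 75th percentile with SB431542 and 4.46 to 4.595 times with DMSO. Of 5 tested trophoblast genes 2 rose and 1 fell (3.44 to 4.002 against 3.98 to 4.18), of 6 primitive endoderm genes 1 rose and 0 fell (0.957 to 1.09 against 0.937 to 0.981), of 6 fibroblast genes 0 rose and 2 fell (93.4 to 117.9 against 99.5 to 105.1), and of 4 tested mesendoderm genes 0 passed the test (1.12 to 1.21 against 1.12 to 1.19). In limma, 1 of these 4 mesendoderm genes had an unadjusted p under 0.05, against 7162 of all 25899 features. Of all features on the array, 5.19% rose and 7.38% fell. A summed signal is weighted toward the brightest probes of its list, so it does not describe each marker. Hand1, Neurog2, T and Mixl1 were not well above background on enough arrays to test. The part of these shifts in the homeobox results was not tested. In such bulk samples, fewer cells of a type and less RNA per cell cannot be told apart.

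SB431542 was accompanied by changes in 9 of the 39 tested homeobox genes, 5 higher and 4 lower. Hesx1, Irx3, Satb1, Meis1 and Pbx2 rose, and Hoxa5, Hoxc13, Hoxa3 and Zfhx3 fell. The 9 genes are 23.1% of those tested, against 12.6% of all features on the array. The list was not drawn up blind to these data, so the pair of shares is a description only. The background was 5.19% for rises and 7.38% for falls. Here a gene rose or fell where limma's p-value, adjusted by the Benjamini-Hochberg method over all features, was under 0.05. The 2 groups did not overlap for 17 of the 39 genes, or 43.6%, against 36.0% of all features. Of these genes 11 were higher and 6 lower with SB431542, against 18.6% and 17.3% of all features. The median log2 change, SB431542 minus DMSO, was 0.03 over the 39 genes and 0.02 over all features. Hoxa5 was kept for testing only because it was measured on the DMSO arrays, so its place among the falls was favoured by the filter. Signals below are given as percent of each array's 75th percentile, a scale that compares the same probe between arrays and not one gene with another.

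**Figure D1:**
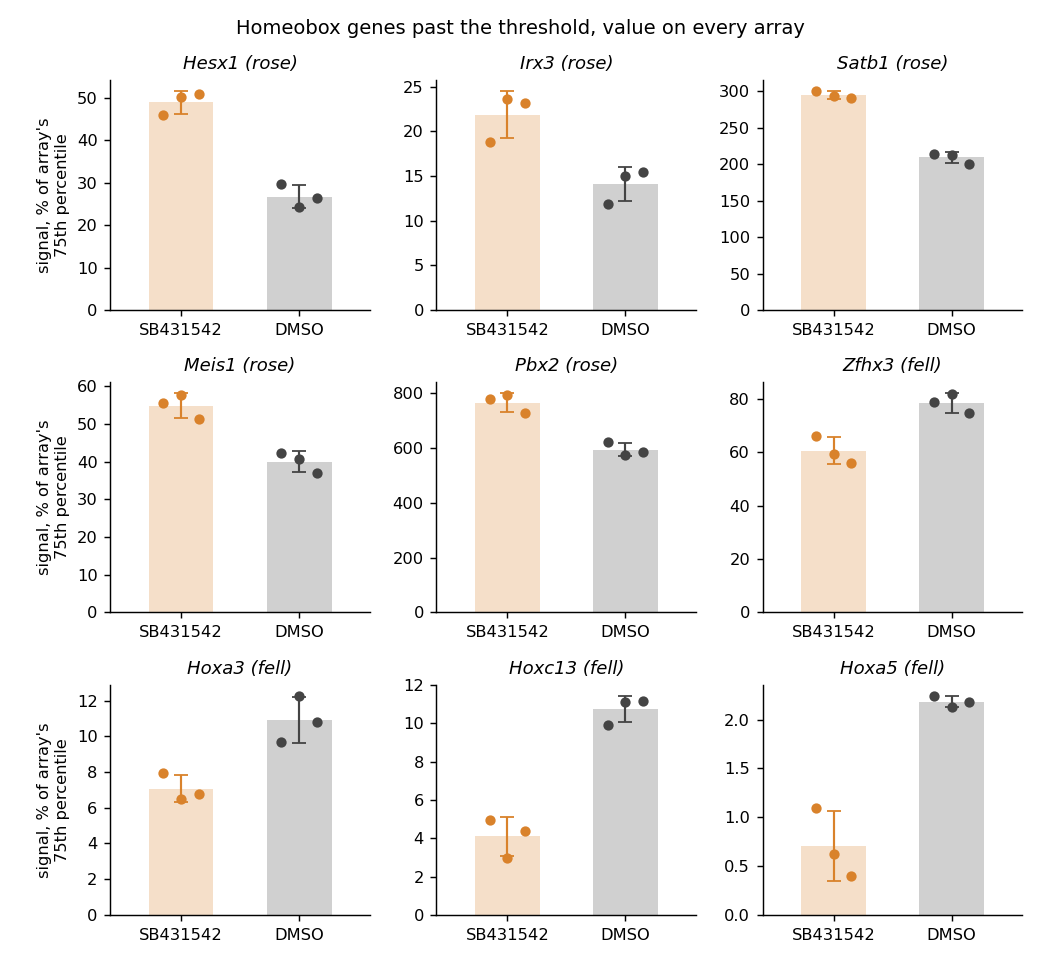
Signal of the 9 homeobox genes that passed the test on every array, in percent of the array's 75th percentile, with SB431542 on the left and DMSO on the right of each panel. Points are arrays, bars are means of 3 arrays and error bars are SD. The groups do not overlap in any of the panels, and Hoxa5 with SB431542 lies between 0.395 and 1.09%.

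Hesx1 had the largest rise in the set. Its protein is a paired-like repressor known from the anterior neural plate and the pituitary. Its signal was 45.8, 50.2 and 50.8% of the 75th percentile on the SB431542 arrays and 29.6, 24.2 and 26.4% on the DMSO arrays. Every SB431542 array thus lay above every DMSO array, and the rise was 1.84-fold, or 0.88 ± 0.09 on the log2 scale (SE, 3 arrays per group, limma adjusted p = 0.00354). On slide 1 alone the log2 change was 0.85 (adjusted p = 0.0140). The other tested paired-like genes of this set did not pass. Obox6, a gene of an oocyte-expressed family, changed by -0.09 ± 0.07, and the reproductive homeobox genes of the X-linked Rhox cluster by 0.01 ± 0.05 (Rhox5), 0.03 ± 0.09 (Rhox6) and -0.19 ± 0.07 (Rhox9). Rhox9 had 162.6, 168.9 and 175.4% with SB431542 and 179.5, 206.6 and 193.3% with DMSO. Its groups did not overlap, but its adjusted p was 0.148. Rhox5 was the most even of these, with 1994 to 2047% with SB431542 and 1962 to 2056% with DMSO. Rhox6 and Rhox9 belong to a cluster of related copies, and sharing of signal between their probes was not tested.

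Satb1 encodes a chromatin organiser with CUT domains beside its homeodomain. It had 300.8, 293.1 and 290.9% with SB431542 and 214.6, 212.9 and 200.6% with DMSO. The arrays were tight in both groups and did not overlap, with a log2 change of 0.495 ± 0.05 (1.41-fold, limma adjusted p = 0.00385, 3 arrays per group), and 0.505 on slide 1 alone (adjusted p = 0.0109). The other CUT class genes of this set, Cux1 (0.09 ± 0.07) and Onecut2 (-0.10 ± 0.08), did not pass. Cux1 had 3 usable probes, which gave 0.09, -0.08 and 0.14, none past the threshold.

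Among the cofactors of Hox proteins, Meis1 and Pbx2 rose. Meis1 had 55.5, 57.8 and 51.3% with SB431542 and 42.4, 40.6 and 36.9% with DMSO. These groups did not overlap, and the log2 change was 0.46 ± 0.08 (1.37-fold, limma adjusted p = 0.0168, 3 arrays per group) and 0.505 on slide 1 alone (adjusted p = 0.0225). Without DMSO replicate 2 its adjusted p was 0.0665, without DMSO replicate 3 it was 0.0605, and without SB431542 replicates 1 and 2 it was 0.0531 and 0.0538. Pbx2 had 776.1, 790.9 and 724.9% with SB431542 and 621.1, 573.9 and 583.8% with DMSO. Its SB431542 arrays were all above its DMSO arrays, with a log2 change of 0.37 ± 0.06 (1.29-fold, adjusted p = 0.0164) and 0.40 on slide 1 alone (adjusted p = 0.0191). Removal of DMSO replicate 2 or 3 gave Pbx2 an adjusted p of 0.0772 or 0.0753, and removal of SB431542 replicate 1 or 2 gave 0.0529 or 0.0538. With a block for replicate number the adjusted p of Pbx2 was 0.0638. Meis2 (0.25 ± 0.08, adjusted p = 0.0921) and Meis3 (0.245 ± 0.06, adjusted p = 0.0605) did not pass, although every SB431542 array lay above every DMSO array for both. On slide 1 alone Meis2 passed (0.315, adjusted p = 0.0420). A further probe of Meis3 gave 0.18 ± 0.14 with overlapping groups. Pknox1, a partner of Pbx proteins, gave -0.14 ± 0.05 and -0.13 ± 0.06 from its 2 probes, with groups that did not overlap and adjusted p of 0.164 and 0.230, and Pbx3 gave -0.04 ± 0.09. All 8 TALE class genes of this set were tested, with 3 higher and 0 lower, against 5.19% and 7.38% of all features. The groups did not overlap for 6 of the 8 (75%, against 36.0% of all features).

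The Iroquois genes are TALE genes known from patterning of the nervous system and heart. Irx3 had 18.8, 23.7 and 23.2% with SB431542 and 11.9, 15.0 and 15.4% with DMSO. The lowest SB431542 array lay above the highest DMSO array, and the log2 change was 0.64 ± 0.14 (1.55-fold, limma adjusted p = 0.0359, 3 arrays per group). This call did not hold on slide 1 alone (0.59, adjusted p = 0.0900), nor after removal of any one DMSO array (adjusted p = 0.0851, 0.0916 and 0.0748 for replicates 1, 2 and 3), nor of SB431542 replicate 2 (0.1003). The call was also lost with no filter on dim probes (adjusted p = 0.0743). Irx5, its neighbour in the genome, was well above background on 2 of 3 arrays of each group and changed by -0.03 ± 0.28.

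The Hox genes of this set were dim, and those that passed fell. Of 12 listed, 10 were tested, 3 fell, 0 rose and 7 did not pass, against 7.38% of all features that fell. A negative log2 change was seen in 8 of the 10, against 11855 of the 25899 features. Hoxa5 is among the 3 falls and the 8 negative changes. It was kept for testing only because it was measured on the DMSO arrays, which favoured a fall. Their SE ranged from 0.11 to 0.35 on the log2 scale, with a median of 0.18, against a median of 0.08 over the other tested homeobox genes. Hoxc13, known from hair and nail formation, had 4.94, 2.96 and 4.38% of the 75th percentile with SB431542 and 9.94, 11.1 and 11.2% with DMSO. All arrays were well above background and the groups were far apart, with a log2 change of -1.42 ± 0.19 (2.68-fold lower, limma adjusted p = 0.00818, 3 arrays per group) and -1.49 on slide 1 alone (adjusted p = 0.0234). With normexp background correction, whose offset shrinks changes of dim probes, it was -0.46 (adjusted p = 0.000508). Hoxa3, known from the thymus and parathyroid, had 7.94, 6.52 and 6.75% with SB431542 and 9.68, 12.3 and 10.8% with DMSO. The groups did not overlap, with a log2 change of -0.63 ± 0.12 (1.54-fold lower, adjusted p = 0.0232), and -0.285 with normexp (adjusted p = 0.0264). The fall did not pass on slide 1 alone (-0.596, adjusted p = 0.0620), without DMSO replicates 2 and 3 (0.0729 and 0.0831) or without SB431542 replicate 2 (0.0697). Nor did it pass with no filter on dim probes (0.0514) or with a block for replicate number (0.0947).

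Hoxa5, known from the lung and axial skeleton, had 1.09, 0.622 and 0.395% with SB431542 and 2.245, 2.13 and 2.18% with DMSO. It was well above background on all 3 DMSO arrays and on 0 of 3 SB431542 arrays, so its size is a bound. Set against the lowest signal well above background on each SB431542 array, it was at least 1.18-fold lower with SB431542, a bound that was not tested. The limma adjusted p of 0.0281 belongs to the measured values, and those with SB431542 were not well above background. The call held on slide 1 alone (adjusted p = 0.0307). It was lost without any of DMSO replicates 1, 2 and 3 (adjusted p = 0.0959, 0.0944 and 0.0942), without SB431542 replicate 2 (0.0813) and with normexp (0.166). It was also lost with no filter on dim probes (0.0600) and with a block for replicate number (0.0597). Hoxd8 was well above background on 2 of 3 DMSO arrays and on 0 of 3 SB431542 arrays, and was not tested. By the same measure it was 1.315-fold lower with SB431542. That is not a strict bound, since the DMSO mean includes an array not well above background. The Hoxd8 signal was 1.30, 1.29 and 1.55% with SB431542 and 1.94, 2.30 and 3.24% with DMSO, without overlap.

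The HoxA genes were described along the cluster. Beside Hoxa3 and Hoxa5, which fell, Hoxa2 (-0.33 ± 0.18), Hoxa4 (-0.24 ± 0.16), Hoxa6 (-0.32 ± 0.17) and Hoxa7 (-0.26 ± 0.11) had negative values that did not pass, and Hoxa9 a positive one (0.19 ± 0.25). Hoxa7 came nearest the threshold of these, with an adjusted p of 0.193, and had 12.8, 15.05 and 14.1% with SB431542 and 18.9, 16.7 and 14.8% with DMSO, with overlap. In Hoxa9, SB431542 replicate 3 stood apart at 7.095%, against 3.61 and 4.22% on the other SB431542 arrays and 3.775 to 4.47% with DMSO, and without that array the log2 change was -0.099. A second probe of Hoxa9 stayed near background on all arrays. Outside the set, Hoxa10, Hoxa11 and Hoxa13 were not well above background on any array.

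**Figure D2:**
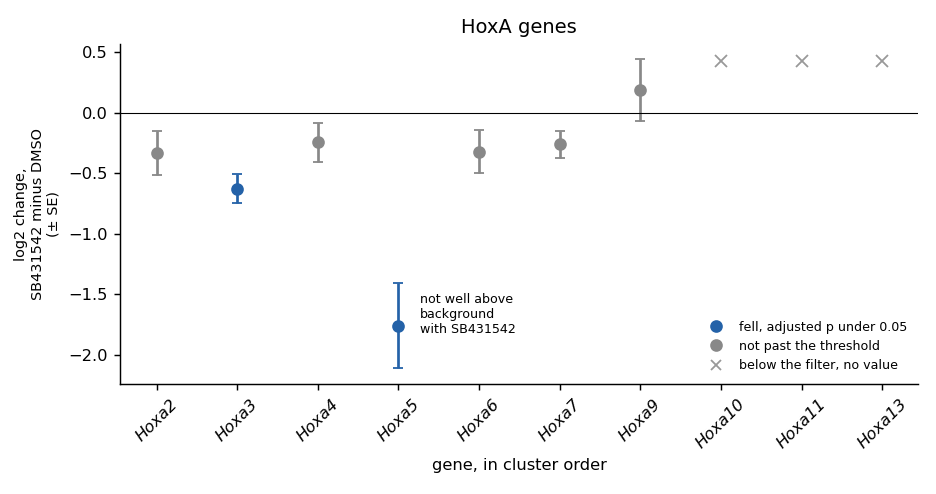
Log2 change (SB431542 minus DMSO, ± SE, 3 arrays per group) of HoxA genes in cluster order. Blue points passed the test, grey points did not, and crosses at the upper edge are genes below the filter with no value. Hoxa3 and Hoxa5 fell, and Hoxa5 was not well above background on any SB431542 array.

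Hoxc4 had a positive log2 change of 0.49 ± 0.12 and did not pass (adjusted p = 0.0562). Its signal was 11.9, 11.9 and 9.41% with SB431542 and 7.002, 8.61 and 7.89% with DMSO, without overlap, and on slide 1 alone it passed (0.61, adjusted p = 0.0264). Hoxd13, known from limb formation, changed by -0.26 ± 0.23 with overlapping groups. Hoxd9 stayed near background on all arrays.

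Zfhx3, a large zinc finger homeobox gene of neurons, also fell. It had 66.0, 59.3 and 56.1% with SB431542 and 78.9, 81.8 and 74.5% with DMSO. The groups did not overlap, and the log2 change was -0.38 ± 0.08 (1.30-fold lower, limma adjusted p = 0.0326, 3 arrays per group). It did not pass on slide 1 alone (-0.325, adjusted p = 0.0611), with DMSO replicate 1, 2 or 3 removed (0.110, 0.122 and 0.0782) or with SB431542 replicate 2 removed (0.0912). Of the other zinc finger members, Zhx1 (0.07 ± 0.07) and Adnp (0.14 ± 0.06, adjusted p = 0.201) did not pass. A second probe of Adnp, which encodes a chromatin remodelling partner, gave 0.20 ± 0.09.

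In the remaining classes, no gene of this set passed. In the NK-like class, the BMP-responsive gene Msx2 had 30.3, 35.2 and 36.1% with SB431542 and 28.3, 26.55 and 24.3% with DMSO. Its groups did not overlap, with a log2 change of 0.36 ± 0.09 and an adjusted p of 0.0629, and without SB431542 replicate 1 it passed (0.44, adjusted p = 0.0442). Its paralog Msx1 changed by -0.06 ± 0.16, the engrailed gene En2 of the midbrain by 0.15 ± 0.08 (0.23 and adjusted p = 0.0475 on slide 1 alone), and Dlx3 of skin and placenta by 0.09 ± 0.14. Dlx3 ranged from 429.6 to 619.0% with SB431542, with the highest value on replicate 3, and from 439.5 to 517.9% with DMSO. Dlx2 cleared the background level on 2 of 3 SB431542 arrays and 1 of 3 DMSO arrays and had a log2 change of 0.40 ± 0.22. Dlx1, Emx2 and both probes of Prrx1 were not well above background on any array. Lhx2, a LIM homeobox gene of the forebrain and eye, had 32.4, 29.8 and 30.1% with SB431542 and 25.0, 24.2 and 27.8% with DMSO, with no overlap and a log2 change of 0.26 ± 0.07 that did not pass (adjusted p = 0.0759). The widely expressed factor genes Pou2f1 (0.001 ± 0.07), Six4 (0.05 ± 0.06), Six5 (0.06 ± 0.09) and Hmbox1 (-0.14 ± 0.09) did not pass either. A second probe gave -0.01 ± 0.06 for Pou2f1 and -0.30 ± 0.14 for Hmbox1. A p-value that misses the threshold does not show that a gene did not differ, and the SE states what each could have hidden.

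**Figure D3:**
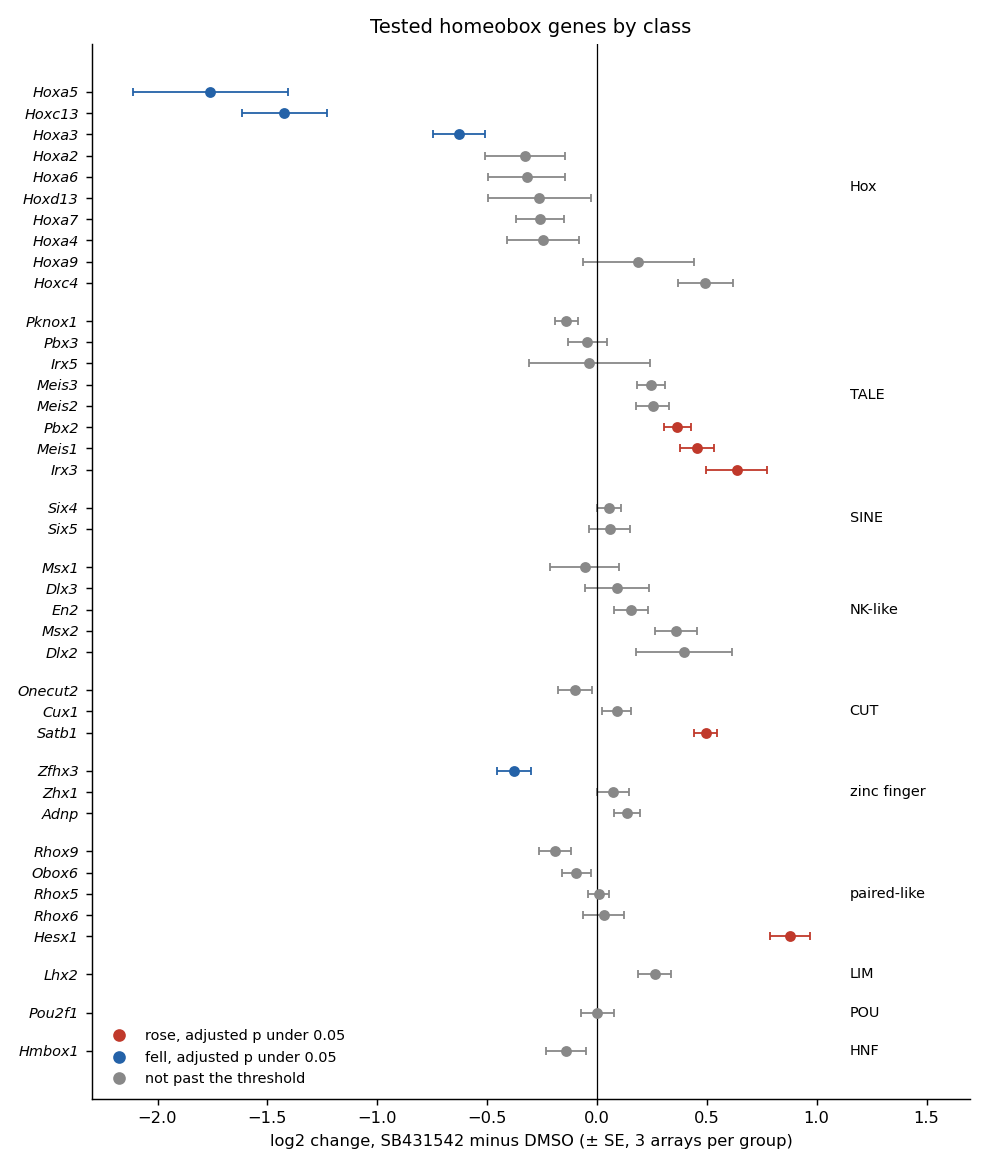
Log2 change (SB431542 minus DMSO) with SE, 3 arrays per group, for the 39 tested homeobox genes grouped by homeobox class. Red points rose, blue points fell and grey points did not pass an adjusted p of 0.05. The Hox class holds 3 of the 4 falls, and the TALE class holds 3 of the 5 rises. Among these falls is Hoxa5, which was kept for testing only through the DMSO arrays.

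The calls differed in how far they rested on single arrays. Hesx1, Satb1 and Hoxc13 passed in each of 17 alternative settings, with an adjusted p of at most 0.0345, 0.0331 and 0.0418. These are not 17 separate checks. A block for slide gave the same fit as slide 1 alone, and the settings of probe choice repeated the log2 change of genes with a single probe. The other 6 of the 9 called genes lost the threshold in some setting, and none of the 9 changed direction (0 genes). On slide 1 alone 9 homeobox genes passed, 7 higher and 2 lower, since Irx3, Hoxa3 and Zfhx3 were lost and Hoxc4, Meis2 and En2 were gained. Leaving out DMSO replicate 2, DMSO replicate 3 or SB431542 replicate 2 left 3 genes called. Calls over all 25899 features dropped as well. They were 3257 in the main setting, 2910 on slide 1 alone, and 1467, 1557 and 2172 without those 3 arrays in turn.

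**Figure D4:**
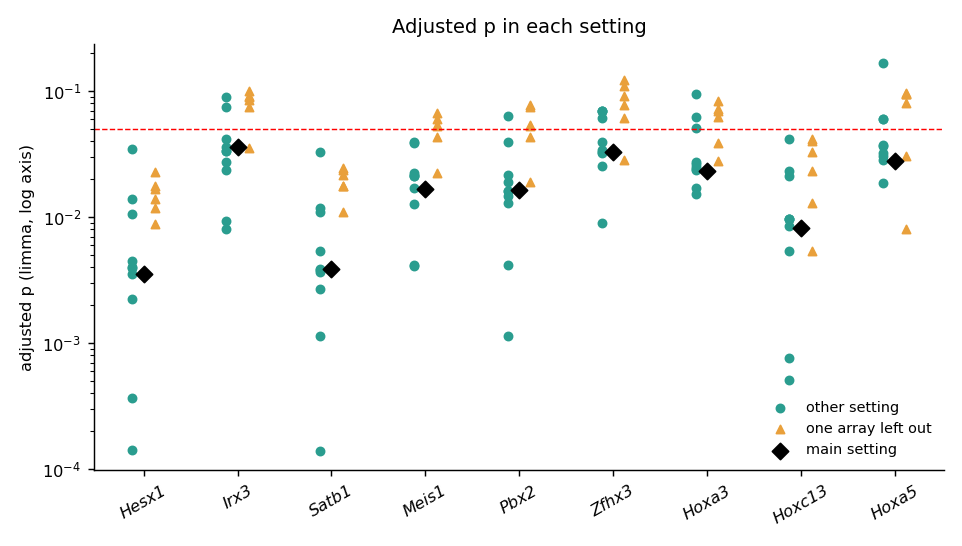
Adjusted p from limma, on a log axis, of the 9 called homeobox genes in the main setting (diamonds), in other processing settings (circles) and with 1 array left out (triangles). The dashed line marks 0.05, and Hesx1, Satb1 and Hoxc13 keep all their points under it.

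To show the sequence beside genes that moved, start-site windows were taken from RefSeq (build GRCm38.p6), each with 250 bases before and 50 after the transcription start. Such windows were found for 32 of the 45 genes, 40 windows in all, with a median GC content of 61.3% against 52.7% over all 32851 windows. Short motifs were searched on both strands, and none of these motifs is contained in another. The Smad-binding letters CAGACA were in 8 of the 40 windows (20%, against 21.0% of all windows), among them a window of Satb1, and the Meis letters TGACAG in 3 (7.5% against 19.2%). The Foxh1 letters AATCCAC were in 2 (5.0% against 2.49%), those of Meis1 and Pou2f1, and the Pbx letters TGATTGA in 1 (2.5% against 2.7%). The 4 windows shown are printed 5′ to 3′ on the strand of the gene, in lower case with motif matches in capitals, for the gene with the largest rise, for Meis1, whose window holds the Foxh1 letters 15 bases after the start, and for the 2 HoxA genes that fell. The window of Hoxa3 holds the Meis letters, on the opposite strand, from 13 bases before the start. The window of Hesx1 has 33.7% GC and that of Hoxa5 has 61.7%, and neither holds any of the searched letters. A match is a description and not a binding site.
Hesx1, chr14:27000112-27000411, plus strand: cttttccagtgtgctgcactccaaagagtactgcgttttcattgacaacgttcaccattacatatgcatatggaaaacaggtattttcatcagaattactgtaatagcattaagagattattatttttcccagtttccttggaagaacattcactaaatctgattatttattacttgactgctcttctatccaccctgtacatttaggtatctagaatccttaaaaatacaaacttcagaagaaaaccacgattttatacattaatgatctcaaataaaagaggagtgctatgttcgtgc
Meis1, chr11:19018920-19019219, minus strand: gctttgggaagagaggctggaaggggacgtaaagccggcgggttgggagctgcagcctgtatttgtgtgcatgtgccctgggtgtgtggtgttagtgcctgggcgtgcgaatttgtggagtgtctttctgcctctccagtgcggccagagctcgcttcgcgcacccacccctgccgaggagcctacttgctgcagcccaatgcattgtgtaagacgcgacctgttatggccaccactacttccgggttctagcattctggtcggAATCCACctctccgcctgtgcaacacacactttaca
Hoxa3, chr6:52213018-52213317, minus strand: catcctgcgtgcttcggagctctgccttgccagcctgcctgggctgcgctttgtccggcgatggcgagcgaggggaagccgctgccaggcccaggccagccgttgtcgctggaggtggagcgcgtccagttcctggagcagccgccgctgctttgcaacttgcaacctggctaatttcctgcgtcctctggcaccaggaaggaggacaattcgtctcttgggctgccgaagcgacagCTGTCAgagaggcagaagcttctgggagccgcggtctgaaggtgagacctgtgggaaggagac
Hoxa5, chr6:52204538-52204837, minus strand: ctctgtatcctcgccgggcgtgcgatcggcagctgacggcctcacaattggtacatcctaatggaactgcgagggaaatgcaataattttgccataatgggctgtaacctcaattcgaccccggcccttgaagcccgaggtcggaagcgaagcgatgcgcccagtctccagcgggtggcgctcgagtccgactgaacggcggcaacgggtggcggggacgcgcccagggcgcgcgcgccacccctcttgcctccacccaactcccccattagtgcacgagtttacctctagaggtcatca

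Among 171 further homeobox genes outside this set, 165 had a matched probe, 100 were tested, and 7 rose and 13 fell. That is 20% of those tested, against 23.1% of the 39 and 12.6% of all features. Of 17 further Hox genes of the A, C and D clusters 2 were bright enough to test, against 10 of the 12 listed here. The list was not drawn up blind to these data, so these shares and counts are a description only.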

How the data were processed

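Cy3-labelled total RNA of 6 samples was measured on Agilent one-colour arrays. Per the file headers, Feature Extraction (version 10.7 in the submitters' processing notes) wrote background-subtracted, detrended spot intensity values, which the authors deposited without normalization between arrays, and flags for well above background, outlier and saturated spots, each a deposited score of 0 or 1. The deposited value table is on a log2 scale, with a normalization not given in the sources used, and served as an alternative.

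Outlier and control spots were left out, 0 spots were saturated, and spots of a probe were averaged. The log2 signal minus each array's 75th percentile was used. A probe was kept if 3 or more of the 6 arrays had it well above background. Accessions were matched to RefSeq (GRCm38.p6), which named 27207 probes, 27194 of them by accession, and left 28393 unnamed. The array grid is of build mm9, so no gene coordinates were taken over. The brightest kept probe stood for a gene. A fold against a group not well above background is a lower bound where the other group was well above background on all its arrays.

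Groups were compared with limma 3.58.1 (R 4.3.3, Python 3.11.15), two-sided, with Benjamini-Hochberg adjustment over 25899 features. Errors are standard errors unless called SD. The number of arrays limits the precision. Steps were tested on simulated data. Members and lists were chosen with earlier results of these data known. Every tested member is named, and of the further homeobox genes the 5 with the smallest adjusted p in each direction, some of which are not reported here. Alternatives changed the background correction, normalization, dim-probe filter, probe choice, variance model, threshold, slide block and replicate block, and left out each array. The background correction alternative used the median spot signal in place of the planned mean signal. Protein sequences were not used here. Same-numbered SB431542 and DMSO samples deviated from their group means with correlations of 0.002, 0.072 and -0.058. With 3 arrays per group these values cannot show whether samples were paired. The numbers were not taken as pairs in the main setting, and the replicate block is the alternative that does so.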

Additional observations from a re-analysis of the deposited data

How the results depend on the processing

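Of the 9 calls, 3 held in all 17 alternative settings, which overlap, and 6 were lost in some. The 9 calls, 5 higher and 4 lower, became 5 in all and 1 lower with no filter on dim probes, 5 in all and 1 lower with the replicate block, and 3 in all, 2 higher and 1 lower at an adjusted p under 0.01. The variance model with trend gave 9 higher, normexp gave 2 lower, and the slide block gave 2 lower. The slide block was the same fit as leaving out SB431542 replicate 3. Over all features the 3257 calls became 2098, 1567 and 1222 with no filter, with the replicate block and at 0.01, and the 20 calls among further homeobox genes became 12 at 0.01. Leaving out 1 array gave 3 to 9 calls among the members (2 to 7 higher, 1 to 4 lower) and 1467 to 2910 over all features. Replicate numbers were not taken as pairs, and 1 of the 3 same-number correlations was negative. With 3 arrays per group, such correlations cannot show whether the samples were paired. None of the 9 called genes changed sign, while 10 of the 30 uncalled ones did. Log2 changes on the other side of 0 were 0.018 (Hoxa6), 0.004 (Pbx3), 0.098 (Irx5), 0.043 (Msx1), -0.015 (Rhox6) and -0.038 (Pou2f1) with normexp, 0.010 (Irx5), -0.011 (Rhox5) and -0.013 (Pou2f1) with quantile normalization, 0.009, -0.010 and -0.011 for the same 3 genes in the authors' deposited table, -0.005 (Pou2f1) with the mean of probes, and -0.099 (Hoxa9), 0.044 (Pbx3), 0.265 (Irx5), -0.044 (Dlx3) and -0.023 (Pou2f1) with the slide block. Leaving out 1 array gave -0.099 to 0.388 (Hoxa9), -0.103 to 0.044 (Pbx3), -0.275 to 0.265 (Irx5), -0.034 to 0.127 (Six5), -0.170 to 0.060 (Msx1), -0.044 to 0.219 (Dlx3), -0.007 to 0.026 (Rhox5), -0.033 to 0.119 (Rhox6) and -0.046 to 0.072 (Pou2f1). Zfhx3 was also lost with normexp (-0.23, adjusted p = 0.0690). The cause of these differences was not tested. Of the 3 SB431542 arrays, Hoxa5 was well above background on 0 and Hoxa2 on 2.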

Other observations

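Among the further homeobox genes, Nkx6-2, Meox1, Nkx6-3, Esx1 and Irx2 rose with SB431542. Nkx6-2, known from oligodendrocytes, had 36.4, 35.6 and 38.8% of the 75th percentile with SB431542 and 18.8, 19.0 and 19.0% with DMSO (log2 change 0.96 ± 0.055, SE, 3 arrays per group, limma adjusted p = 0.000563). Meox1, known from somites, had 9.04, 7.91 and 11.4% with SB431542 and 2.99, 3.48 and 3.90% with DMSO (1.44 ± 0.16). Both were separated from DMSO on every array. Irx2 (0.54 ± 0.08) rose beside its relative Irx3, and Esx1, a gene of the placenta and testis, rose by 0.43 ± 0.06. Without DMSO replicate 2 the adjusted p was 0.0504 for Esx1 and 0.0518 for Irx2, and with the replicate block 0.0585 and 0.0616. Nkx6-3 rose on its brightest probe (0.56 ± 0.08) but not on its other one (-0.09).

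Cdx1, a regulator of Hox genes in the posterior embryo, fell to 63.95, 66.9 and 65.5% with SB431542, against 128.4, 135.4 and 125.4% with DMSO (log2 change -0.99 ± 0.055, limma adjusted p = 0.000516, 3 arrays per group). The groups lay far apart. The TALE gene Mkx (-1.11 ± 0.07) also fell. Duxbl1 was not well above background on any SB431542 array and was at least 8.06-fold lower there. It was kept for testing only through the DMSO arrays, has near-identical copies and is uncertain. The signs and calls of the genes named here were the same on slide 1 alone, with log2 changes of 0.93 (Nkx6-2), 1.30 (Meox1), 0.56 (Nkx6-3), 0.515 (Irx2), 0.40 (Esx1), -0.99 (Cdx1) and -1.14 (Mkx) there, and an adjusted p of 0.00189 for Duxbl1.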
